A study of Homo sapiens with 8 samples.

Results

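The 5S ribosomal RNA genes and their dispersed copies are the 521 genes, of 63140 in the count table, whose symbols begin with RNA5S. They comprise 17 annotated genes (RNA5S) and 504 copies (RNA5SP), and they were chosen by symbol, without use of their values. Counts came from chromatin isolation by RNA purification (ChIRP), in which fixed and sonicated lysate is hybridised with biotinylated probes and the RNA captured with them is sequenced. There were 8 libraries from acute myeloid leukaemia cells, all collected on day 3 after editing, and total counts ran from 20548300 to 37970163 per library. The labels name neither the RNA that the probes bind nor an input library, so no enrichment could be computed from these amounts.

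The 4 groups held 2 libraries each. Cells had received either Cas9 ribonucleoprotein, which cuts DNA (KO), or a cytosine base editor, which changes C to T without cutting both strands (CBE). The guide RNA targeted either HOTSCRAMBL, a long non-coding RNA, or the AAVS1 site, which served as the editing control for each editor. All 8 samples had thus been nucleofected with an editor, the AAVS1 controls included, whose genotype is given as WT. In every group replicate 1 carries the label MOLM13 and replicate 2 the label OCI-AML4, both established leukaemia lines, so that the line label and the replicate number cannot be told apart. The labels do not say that the libraries of a group are separate cultures beyond these line labels. Of 10 myeloid marker genes fixed for the check of cell identity, 9 were above 1 CPM in every library (CD68 was the exception, at 0 to 1.26 CPM), and their summed level ran from 1171 to 1819 CPM. Of 12 markers of other cells, 2 were above 1 CPM in every library, among them PECAM1 at 92.6 to 181 CPM. Of the rest, KRT8 reached the highest level (0 to 3.25 CPM), and only CD3E and HBB were at 0 throughout.

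5S ribosomal RNA is a short structural RNA of the large ribosomal subunit. RNA polymerase III transcribes it from a tandem gene cluster, recruited by TFIIIA (GTF3A), which binds inside the gene, and by TFIIIC and TFIIIB. Before it enters the ribosome it is bound by the ribosomal proteins RPL5 and RPL11, and free complexes of this RNA with both proteins bind the p53 regulator MDM2. The many dispersed copies are thought to have arisen by retroposition, and most are truncated or mutated and are annotated as pseudogenes.

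The sequences decide what could be counted, since a read that could be placed at more than 1 position was left out. Of the 521 members, 520 had a sequence in GENCODE release 29, the build of which (GRCh38) is that of the counts, and all 520 had the length given in the count table. Each was aligned to RNA5S1, which stands for the cluster.

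The 17 RNA5S genes lie in tandem on the minus strand of chromosome 1 (GRCh38), between 228610268 and 228646158, with starts spaced 2215 to 2242 bases apart. Of these, 16 are identical over all 119 bases, and all 16 had a count of 0 in every library. A count of 0 allows up to 3 counts, or between 0.0790 and 0.146 CPM in a library (CPM being counts scaled to a library's total), and it covers uniquely placed reads alone. A read lying wholly within a sequence shared by these 16 genes has more than 1 possible position and would not have been counted. Over all members, 35 share their whole sequence with another, and 5 of these had a count. RNA5S9 differs from RNA5S1 by a single substitution and was the one gene of the cluster with counts, 1678 over the 8 libraries. The amount of 5S RNA itself is therefore not measured in these counts. Whether a read counted at a near-identical copy was transcribed there or came from the cluster with a sequence difference was not tested.

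Of the 521 members, 207 had a count in any library and 314 had none. The counts were concentrated. The 207 members summed to 158026 counts, with a median of 26 counts per member, and RNA5SP149 alone held 48.6% of the total. The leading 3, RNA5SP149, RNA5SP202 and RNA5SP145, held 76.6%, and the leading 10 held 88.0%. There were 65 members with 1 to 9 counts, 86 with 10 to 99, 44 with 100 to 999 and 12 with 1000 or more. The filter on low counts was passed by 79 members, which held 98.8% of the members' counts, and 40 members had counts in all 8 libraries.

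Copies nearer to RNA5S1 held counts more often. Among members with a sequence of their own, 27 of 33 with at least 95% identity over the aligned bases had a count, and 21 of the 33 had 100 or more. Under 85% identity, 48 of 182 had a count and 10 had 100 or more. Near identity did not always go with high counts, as shown by 2 copies chosen after their values were seen. RNA5SP370 and RNA5SP389 match RNA5S1 exactly over its first 90 bases and then leave it, and they held 209 and 166 counts. RNA5SP145, which matches it exactly over 86 bases, held 12775.

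The match to RNA5S1 most often ended within a short stretch near base 90. In 283 of the 520 aligned members (54.4%) the match to RNA5S1 ended between bases 85 and 92 of its 119, and in 171 it ended at base 90. In 122 members it ended at bases 117 to 119, 71 ended before base 85 and 44 ended in between. These bounds were chosen after the values were seen, so the classes are described without a test. The copies ending at bases 85 to 92 held 74.0% of the members' counts, and those ending at bases 117 to 119 held 24.2%.

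The percentage of all counts that fell on 5S members differed between the line labels. With the MOLM13 label it was 0.0647% in AAVS1 KO, 0.0908% in HOTSCRAMBL KO, 0.0752% in AAVS1 CBE and 0.169% in HOTSCRAMBL CBE. With the OCI-AML4 label it was 0.0337%, 0.0319%, 0.0361% and 0.0384% in the same order. All 4 libraries labelled MOLM13 were above all 4 labelled OCI-AML4, and the highest was the HOTSCRAMBL CBE library labelled MOLM13, whose 95% Wilson interval of 0.168% to 0.170% covers counting error only. Without RNA5SP149 the ranges were 0.0323% to 0.0723% and 0.0209% to 0.0277%, again without overlap. Between editing groups the shares overlapped: the mean was 0.0492% ± 0.0219 (SD, n = 2) in AAVS1 KO, 0.0613% ± 0.0417 in HOTSCRAMBL KO, 0.0557% ± 0.0277 in AAVS1 CBE and 0.104% ± 0.0923 in HOTSCRAMBL CBE. The 2 libraries of a group carry different line labels, so these SDs include the difference between labels. Within the MOLM13 label the share was higher with HOTSCRAMBL targeted for both editors. Within the OCI-AML4 label it was slightly lower with KO and slightly higher with CBE. Genes of at most 200 bases other than 5S members did not separate the labels, at 0.353% to 0.493% of counts with MOLM13 and 0.384% to 0.519% with OCI-AML4. In these bulk pull-downs, fewer cells with an RNA and less of it per cell cannot be told apart.

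**Figure D1:**
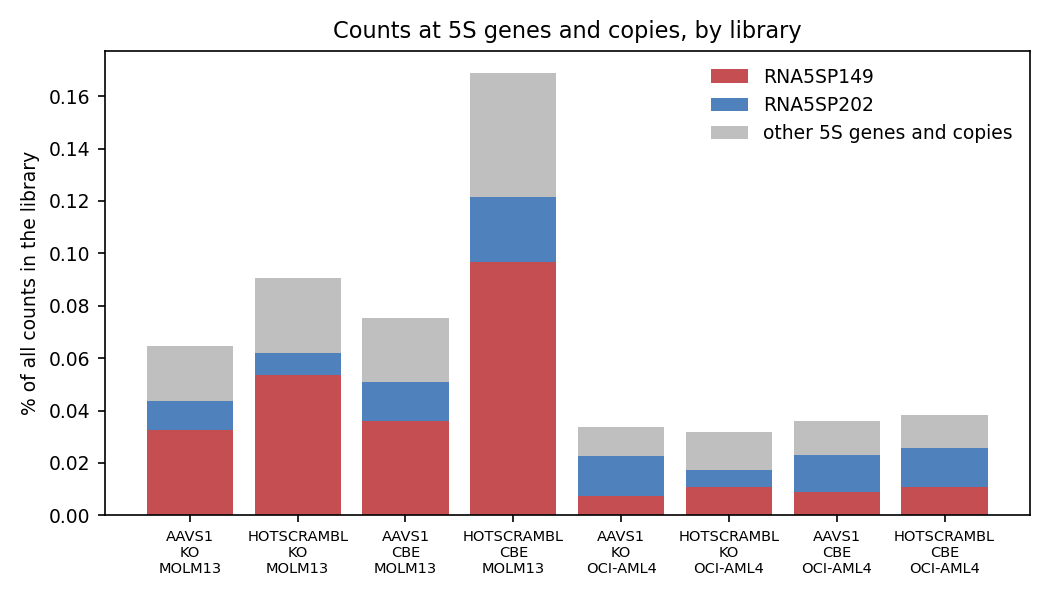
Percentage of all counts at 5S genes and copies in each of the 8 libraries, split into RNA5SP149, RNA5SP202 and all other members. The 4 bars labelled MOLM13 reach 0.0647% to 0.169% and the 4 labelled OCI-AML4 reach 0.0319% to 0.0384%, and RNA5SP149 makes up 47.8% to 59.2% of the former and 22.3% to 34.4% of the latter.

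RNA5SP149 had the highest level. This 92-base copy (ENSG00000201822, chromosome 3, 180161886 to 180161977, minus strand) overlaps no other gene of the table. It matches RNA5S1 up to base 91 with 98.9% identity. Its level with the MOLM13 label was 312 CPM in AAVS1 KO, 563 in HOTSCRAMBL KO, 344 in AAVS1 CBE and 1016 in HOTSCRAMBL CBE (CPM after TMM scaling). With the OCI-AML4 label it was 70.7, 118, 83.4 and 111 CPM. Every library labelled MOLM13 was above every library labelled OCI-AML4, with means of 559 ± 325 and 95.8 ± 22.4 CPM (SD, n = 4). Within each line label the 2 HOTSCRAMBL libraries were above the 2 AAVS1 libraries.

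RNA5SP202 came next and did not share this pattern. It is a full-length copy of 119 bases (ENSG00000201185, chromosome 6, 4427963 to 4428081, plus strand) with a single substitution, and it lies within the span of ENSG00000285424 on the opposite strand, a gene with 0 counts in all 8 libraries. Its level with the MOLM13 label was 108 CPM in AAVS1 KO, 87.8 in HOTSCRAMBL KO, 144 in AAVS1 CBE and 261 in HOTSCRAMBL CBE. With the OCI-AML4 label it was 144, 69.5, 133 and 155 CPM. The line labels overlapped, with means of 150 ± 77.5 and 125 ± 38.4 CPM (SD, n = 4), and both HOTSCRAMBL KO libraries were below the other 6.

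RNA5SP145 had the next highest level (ENSG00000199994, chromosome 3, 151188099 to 151188223, plus strand). It holds the first 86 bases of the 5S sequence followed by 39 bases of other sequence, and lies within the span of MED12L, a subunit of the kinase module of Mediator, without touching its exons. It stood at 44.1, 79.6, 57.5 and 152 CPM with the MOLM13 label, in the same order of groups, and at 16.9, 38.9, 22.4 and 30.0 CPM with the OCI-AML4 label. The label groups did not overlap. MED12L stood at 0.0784 to 4.28 CPM.

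The ratio of RNA5SP149 to RNA5SP202 counts, which needs no scaling between libraries, was 2.88, 6.41, 2.39 and 3.89 with the MOLM13 label and 0.490, 1.70, 0.629 and 0.714 with the OCI-AML4 label, in the same group order. It did not overlap between the labels and was highest in HOTSCRAMBL KO within each.

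**Figure D2:**
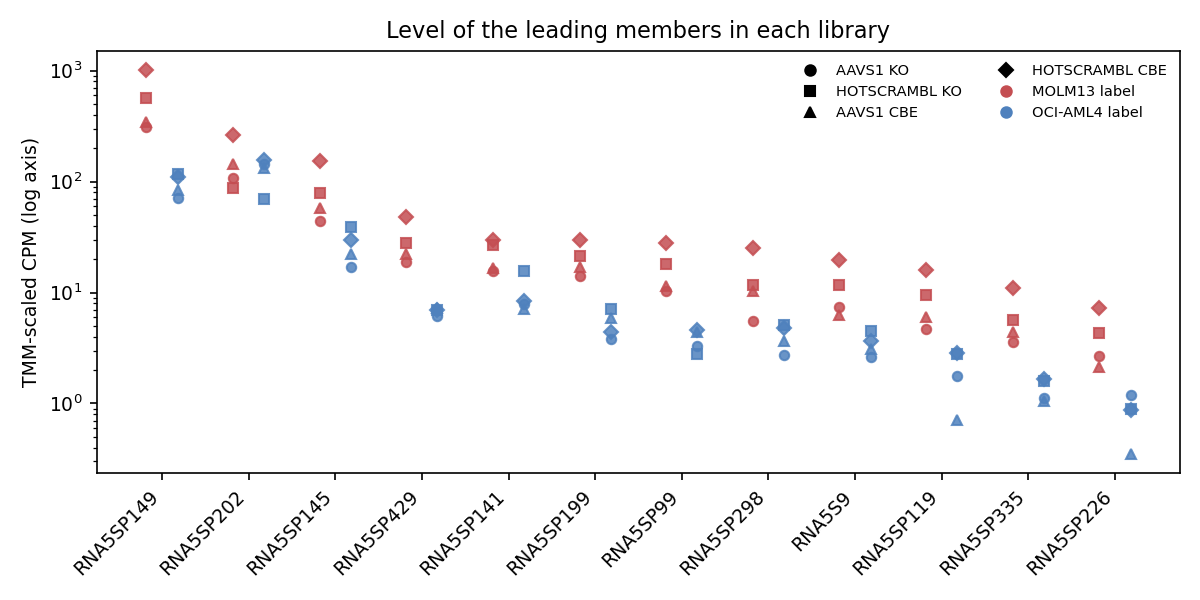
TMM-scaled CPM on a log axis for the 10 members with the highest mean level, RNA5SP335 and RNA5SP226, with 1 point per library, the shape for the editing group and the colour for the line label. RNA5SP202 overlaps between the colours at 69.5 to 261 CPM, while for RNA5SP149 the lowest MOLM13-labelled library (312 CPM) is above the highest OCI-AML4-labelled library (118 CPM).

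Between line labels, 10 of the 79 tested members passed the threshold (edgeR quasi-likelihood test, Benjamini-Hochberg adjusted p below 0.05 over all 24057 genes tested), all 10 higher with the MOLM13 label. Over all genes 0.495% passed in either direction with 0.237% higher and 0.258% lower. For RNA5SP149 the difference on the log2 scale was 2.45 (SE 0.13, edgeR adjusted p 2.8e-12). RNA5SP145 differed by 1.61 (SE 0.18, edgeR adjusted p 1.11e-05) and RNA5SP429 by 2.08 (SE 0.27, edgeR adjusted p 7.14e-05). The calls of these 3 held under all 15 alternatives run for this comparison. RNA5SP202 had a value of 0.22 (edgeR adjusted p 0.652).

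The other 7 were lower in level. On the log2 scale RNA5SP199 differed by 1.95, RNA5SP99 of 2.14, RNA5SP119 of 2.20, RNA5SP335 of 2.20, RNA5SP298 of 1.72, RNA5SP141 of 1.22 and RNA5S9 of 1.70, with edgeR adjusted p between 0.00105 and 0.0491. RNA5S9, the cluster gene, stood at 7.45, 11.6, 6.24 and 19.6 CPM with the MOLM13 label and at 2.64, 4.47, 3.11 and 3.62 CPM with the OCI-AML4 label. Each of these 7 calls was lost when either HOTSCRAMBL CBE library was left out. A library left alone in its group no longer informs the line label, so either fit loses the whole pair for this comparison. Without the library of this pair labelled MOLM13, RNA5S9 stood at 1.29. The MOLM13-labelled library of the pair was the deepest (37970163 counts). It also had the largest share of counts on ribosomal RNA genes (7.6%, against 3.07% to 5.73% in the other 7). The part of these in the result was not tested.

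The difference between labels appeared in many copies, though whether near-identical copies vary independently was not tested. The low-count filter took no account of the label. A copy with few counts could thus be tested through its MOLM13-labelled libraries alone, as with RNA5SP481 (34, 22, 8 and 80 counts against 3, 1, 0 and 0). The tallies below include such copies. In 23 of the 79 tested members (29.1%) all 4 libraries labelled MOLM13 were above all 4 labelled OCI-AML4, against 1.2% of all genes tested, and in 2 members all 4 were below, as in 328 of the 24057 genes. The median log2 fold change over the tested members was 0.94, against -0.01 over all genes tested. By where the copy breaks off, the values were as follows. Of the 47 tested members whose match ends at bases 85 to 92, 38 had a positive fold change, with a median of 1.63, and 9 passed. Of the 19 whose match ends at bases 117 to 119, 10 had a positive fold change, with a median of 0.07, and RNA5S9 alone passed. Among members with a mean level of at least 1 CPM, 21 of 21 in the first class had a positive fold change. In the second class, 6 of 8 had one. That mean covers all 8 libraries, so high MOLM13-labelled values alone can lift a copy over 1 CPM. RNA5SP259 is such a copy, with means of 2.01 CPM with the MOLM13 label and 0.371 CPM with the OCI-AML4 label. This tally is therefore no separate support for the difference. These classes were bounded after the values were seen, and the difference between them was not tested.

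**Figure D3:**
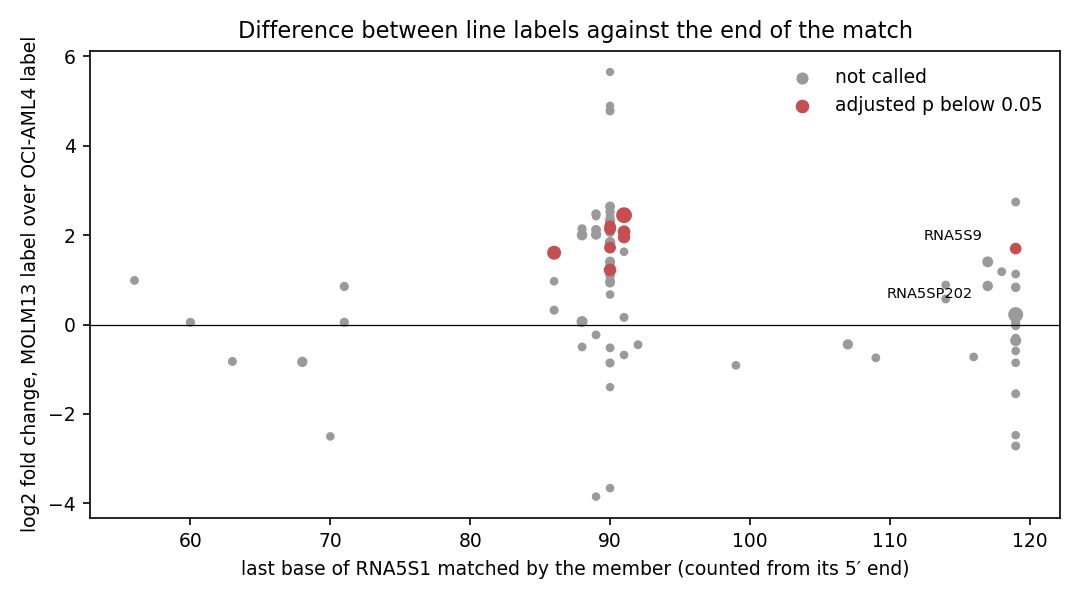
Log2 fold change between line labels of the 79 tested members (y axis, MOLM13 label over OCI-AML4 label) against the last base of RNA5S1 that each matches (x axis, of 119). Larger points have a higher mean level. Red points passed the adjusted threshold, and 9 of the 10 lie at bases 85 to 92. Among members with a mean level of at least 1 CPM, 21 of 21 there and 6 of 8 at bases 117 to 119 are above 0. That mean covers all libraries, so high MOLM13-labelled values alone can bring a member into this count.

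Summed over the class, copies ending at bases 85 to 92 reached 495, 776, 561 and 1382 CPM of the unscaled totals in the MOLM13-labelled libraries and 145, 212, 174 and 203 in the OCI-AML4-labelled ones. Without RNA5SP149 these sums were 171, 239, 201 and 416 against 70.0, 102, 85.7 and 96.4, still without overlap. Members ending at bases 117 to 119 reached 143, 118, 177 and 299 against 179, 94.2, 164 and 170 CPM, and the labels overlapped. Without RNA5SP202, which held most of that class's counts, the sums were 30.0, 34.0, 26.7 and 51.0 against 26.0, 29.7, 23.2 and 20.4 CPM, higher with the MOLM13 label in all 4 groups although the ranges overlapped.

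The counts of the called members were mostly even numbers. Both reads of a pair were counted, so a pair lying within a gene adds 2. Among values of at least 20, 74 of 80 (92.5%) were even in the 10 members called between labels, against 60.3% over all genes.

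Of all 521 members, 331 (63.5%) lie in or across the span of another gene, and 26 touch an exon of it. Of the 10 members called between labels, 6 lie in such a span and 0 touch an exon. Host levels were counted over exons alone, so they leave out reads from host introns. Whether such reads fell on these members was not tested. Their hosts were at low levels: besides MED12L, CDH1 (the host of RNA5SP429, the epithelial cadherin) stood at 0 to 0.831 CPM, ERBB4 (RNA5SP119, a receptor tyrosine kinase) at 0 to 0.277, NAV2 (RNA5SP335) at 0 to 1.76, and DIP2C (RNA5SP298) at 0 in all libraries. The 2 unnamed genes that span RNA5SP141 stood at 0 to 0.880 CPM. RNA5SP429 itself stood at 18.7 to 47.6 CPM with the MOLM13 label and 6.16 to 7.31 CPM with the OCI-AML4 label, above CDH1 in every library. CDH1, with few counts, also did not overlap between labels, at 0.0510 to 0.831 CPM with MOLM13 and 0 to 0.0353 CPM with OCI-AML4. NFYB, a subunit of the transcription factor NF-Y and the host of RNA5SP370, stood at 7.53 to 21.1 CPM, while RNA5SP370 stood at 0.0894 to 2.55 CPM.

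Targeting HOTSCRAMBL with Cas9 changed 3 of the 79 tested members (3.8%), against 8.76% of all genes tested in either direction (4.51% higher and 4.25% lower). RNA5SP149 rose by 0.82 on the log2 scale (SE 0.18, edgeR adjusted p 0.00312), with 0.85 in the pair labelled MOLM13 and 0.74 in the pair labelled OCI-AML4. RNA5SP145 rose by 1.00 (SE 0.28, edgeR adjusted p 0.0216), with 0.85 and 1.20 in the pairs. RNA5SP202 fell by 0.70 on the log2 scale (SE 0.20, edgeR adjusted p 0.0302), with -0.30 and -1.05 in the pairs. Without the line label as a block 1 member was called, and the adjusted p of RNA5SP149 was 0.838. DESeq2 called 4 members, all 4 higher, but neither RNA5SP149 (adjusted p 0.104) nor RNA5SP202 (adjusted p 0.192), so the members called depended on the method. Leaving out either HOTSCRAMBL KO library left 0 members called, leaving out any 1 of the 4 AAVS1 libraries left 1, and for RNA5SP202 the value moved to -0.25 without the AAVS1 KO library labelled OCI-AML4.

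Targeting HOTSCRAMBL with the base editor changed 4 tested members (5.06%), against 8.83% of all genes tested (4.56% higher and 4.27% lower). RNA5SP149 rose by 1.16 (SE 0.17, edgeR adjusted p 2.11e-05), with 1.56 in the pair labelled MOLM13 and 0.41 in the pair labelled OCI-AML4. RNA5SP145 rose by 1.14 (SE 0.23, edgeR adjusted p 0.00124), with 1.40 and 0.42. RNA5SP202 rose by 0.59 (SE 0.17, edgeR adjusted p 0.0265), with 0.86 and 0.23. RNA5SP530 (ENSG00000277049, chromosome 9, 41237440 to 41237557, minus strand), a diverged copy with 87.0% identity, had 81 and 175 counts in the AAVS1 CBE libraries, against 0 and 4 with HOTSCRAMBL targeted, and fell by 5.88 on the log2 scale (SE 1.5, edgeR adjusted p 0.0142), a fitted value that depends on the prior count. All 4 calls were lost without the HOTSCRAMBL CBE library labelled MOLM13, where RNA5SP149 moved to 0.48 and RNA5SP145 to 0.34. Without the AAVS1 CBE library labelled MOLM13, 1 call was left, and without the one labelled OCI-AML4, 2. RNA5SP202 did not pass without TMM scaling (0.45, edgeR adjusted p 0.103) or in DESeq2 (adjusted p 0.351). Without the line label as a block, 1 member was called, and a fit of the 4 CBE libraries alone called 0.

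**Figure D4:**
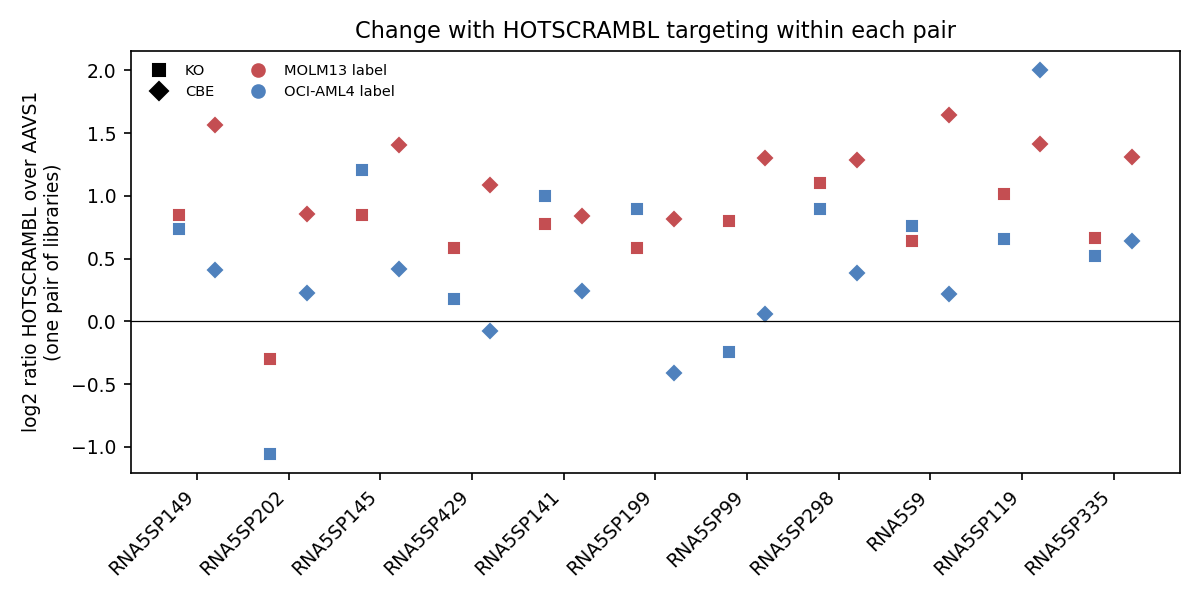
Log2 ratio of HOTSCRAMBL over AAVS1 within each pair of libraries with the same editor and line label (y axis), for 11 members (x axis). RNA5SP202 is below 0 in both KO pairs (-0.30 and -1.05) and above 0 in both CBE pairs (0.86 and 0.23), while RNA5SP149 and RNA5SP145 are above 0 in all 4.

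The response to HOTSCRAMBL targeting differed between the editors in 2 members (2.53%), against 3.19% of all genes tested (1.74% with a higher KO effect and 1.45% with a lower one). For RNA5SP202 the difference, KO effect minus CBE effect, was -1.29 (SE 0.27, edgeR adjusted p 0.00452). For RNA5SP530 it was 7.24 (SE 1.9, edgeR adjusted p 0.0361). For RNA5SP149 it was -0.35 (SE 0.25, edgeR adjusted p 0.578) and for RNA5SP145 -0.14 (SE 0.36, edgeR adjusted p 0.927). Leaving out any single library left at most 1 of the 2 calls, and DESeq2 gave an adjusted p of 0.108 for RNA5SP202. Without the AAVS1 KO library labelled OCI-AML4 the value of RNA5SP202 was -0.82 with an edgeR adjusted p of 0.270, and without the HOTSCRAMBL CBE library labelled MOLM13 it was -0.85 with 0.240.

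Between the controls, AAVS1 KO and AAVS1 CBE, 0 members and 0 genes passed in edgeR. At an unadjusted p under 0.05 there were 0 members and 918 genes, and DESeq2 called 1 member and 35 genes.

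The genes that make and bind 5S RNA were followed in a list of 38, all 38 of which were tested. With KO, 4 rose and 3 fell, against 4.51% and 4.25% of all genes tested. With CBE, 4 rose and 2 fell, against 4.56% and 4.27%. The median log2 fold change was -0.02 with KO and 0.04 with CBE, against -0.01 and -0.02 over all genes tested. Both 5S-binding ribosomal proteins rose with either editor, in counts that leave out reads shared with their pseudogenes and are uncertain to that extent. RPL5 rose by 1.37 with KO (SE 0.13, edgeR adjusted p 1.4e-08) and by 1.5 with CBE (SE 0.12, edgeR adjusted p 1.73e-09). RPL11 rose by 1.89 with KO (edgeR adjusted p 1.89e-10) and 1.19 with CBE (edgeR adjusted p 5.89e-07), and the difference of 0.70 passed (edgeR adjusted p 0.0491).

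Within the transcription machinery, the TFIIIB subunits BRF1 and BDP1 fell. TBP, also part of TFIIIB, had values of 0.01 with KO and -0.27 with CBE (edgeR adjusted p 0.989 and 0.570). BRF1 fell by 0.86 on the log2 scale with KO (edgeR adjusted p 0.00539) and by 0.88 with CBE (edgeR adjusted p 0.00191), and BDP1 fell by 0.414 and by 0.385 (edgeR adjusted p 0.0087 and 0.0129). POLR3D, a subunit of RNA polymerase III, rose by 0.38 with KO, and POLR1C, a subunit shared with RNA polymerase I, fell by 0.82. With CBE, GTF3C4 of TFIIIC rose by 0.77 and POLR2K, a subunit shared by the polymerases, by 1.80. MDM2 rose by 0.67 with KO (edgeR adjusted p 1.55e-04) and had a value of -0.14 with CBE (edgeR adjusted p 0.529), and the difference of 0.82 passed (edgeR adjusted p 0.00273). GTF3A, with 0.52 and 0.50, did not pass with either editor (edgeR adjusted p 0.193 and 0.170), nor did SSB (La, which binds the ends of RNA polymerase III transcripts) or RO60 (which binds misfolded 5S RNA).

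Between line labels 1 of the 38 passed, against 0.495% of all genes tested. This was BDP1, higher with MOLM13 by 0.32 (SE 0.071, edgeR adjusted p 0.0377). RPL5 and RPL11 had values of -0.09 and -0.20 there, and GTF3A of -0.03 (edgeR adjusted p 0.805, 0.549 and 0.980).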

How the data were processed

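The deposited values are whole-number gene counts with no scaling. Per the file headers, these counts were made with featureCounts 2.0.6 on the Ensembl 112 annotation of GRCh38, without strand, with both reads of a pair counted, and without reads that were placed at several positions or lay over several genes. The aligner settings and duplicate removal are not given in the sources used here. Such counting removes reads shared by identical 5S genes.

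Members were found by symbol (99.1% of identifiers had one). Members, classes and gene lists were chosen with earlier results of these data known. The text names RNA5S genes with a count, the 10 members highest in mean CPM and the 10 highest per kilobase, called members, hosts, and in the 38-gene list GTF3A, RPL5, RPL11, SSB, RO60 and up to 5 called genes per contrast. RNA5SP226, RNA5SP259, RNA5SP370, RNA5SP389, RNA5SP481 and TBP were added after their values were seen. Sequences came from GENCODE release 29 and were aligned locally to RNA5S1 with Biopython 1.88 (match 1, mismatch -2, gap opening -4, gap extension -1). The sequences themselves and 1 marker gene are not reported here.

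All genes were fitted together in edgeR 4.0.16 (R 4.3.3) by the quasi-likelihood F-test with robust estimation, TMM scaling and filterByExpr at a minimum count of 10, which kept 24057 genes. The model had 4 groups and the line label, which left 3 residual degrees of freedom; replicate numbers are paired by the line in the titles. Adjusted p below 0.05 was called. P-values measure the spread between these libraries, which may be technical in part. Alternatives were DESeq2 1.42.0, limma-voom (limma 3.58.1), other scaling and filters, no block, the 4 libraries of a contrast alone, each library left out, and edgeR's older method, added after the data were seen. Intervals and floors describe counting error alone, because reads amplified by PCR and lacking molecular identifiers can repeat 1 molecule.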

Additional observations from a re-analysis of the deposited data

Results flagged for a closer look

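In the 32 sets of 4 libraries with the same line label that were searched for a library far from the others, 3 had one, where chance gives about 1 in 20. RNA5SP141 stood at 15.6 CPM in the HOTSCRAMBL KO library labelled OCI-AML4, against 7.14 to 8.43 CPM in the other 3 of that label. RNA5SP389, one of the low copies that match the first 90 bases of 5S exactly, stood at 1.5 CPM in the HOTSCRAMBL CBE library labelled MOLM13 and at 1.79 CPM in the HOTSCRAMBL KO library labelled OCI-AML4. The effects in 2 members differed between the editors by a test of the difference itself. RNA5SP202, the full-length copy with a single substitution, differed by -1.29 (edgeR adjusted p 0.00452), and RNA5SP530 differed by 7.24 (edgeR adjusted p 0.0361), where its counts were 0 and 4 in HOTSCRAMBL CBE.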

How the results depend on the processing

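Over all alternatives run for the members named as called, 189 values kept their direction and their side of the threshold, the rest kept their direction without passing, and 0 reversed. The paired analysis mattered: with no replicate block, 1 member was called with KO and 1 with CBE. A fit of only the 4 libraries of a contrast called 1 member with KO, 0 with CBE, and 780 of all genes with KO, against 2108 in the fit of all libraries. DESeq2 called 4231 genes with KO, 1 member between controls and 18 members between line labels, and limma-voom called 1 member for the difference between editors. With each library left out in turn, members called ran from 0 to 3 with KO, from 0 to 4 with CBE, from 0 to 1 for the difference, and from 3 to 5 between line labels, and genes called with KO from 677 to 1674. The cause was not tested, and each of these fits also rested on fewer libraries. With no TMM scaling, the median over all genes was -0.17 with KO and -0.15 with CBE, and 840 of 2535 KO calls were higher, against 1085 of 2108; directions are relative to TMM scaling. With mitochondrial genes left out of the total, the shares were 0.0694% to 0.191% with the MOLM13 label and 0.0361% to 0.0428% with OCI-AML4. With ribosomal RNA genes left out they were 0.0670% to 0.183% and 0.0334% to 0.0407%. Depth limits the members with few counts, some of which passed the filter and were tested.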
